A study of Homo sapiens with 6 samples.

Results

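The enzymes that make serine, proline and asparagine, with their mitochondrial one-carbon partners, were examined in HPSE-knockdown SW480 cells. SW480 is an established colorectal cancer line, and HPSE encodes heparanase, the enzyme that cuts heparan sulfate chains. The list held 10 genes, ASNS, PSAT1, PHGDH, PSPH, SHMT2, MTHFD2, ALDH1L2, PYCR1, ALDH18A1 and GPT2, and 8 of them had a row of their own among the 59192 features of the deposited table. PSPH and PYCR1 had no row under their own Ensembl identifiers and were not analysed here. Members were found by symbol through these identifiers. The list was drawn up with differences between these same libraries in view, so what follows for its members is a description and not a test.

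The study compared 3 libraries of an HPSE-knockdown line, SW480-45 in the labels, with 3 libraries of the control line SW480-NC, each from an independent experiment. Both lines were first selected with puromycin for stable Cas9 and then received a lentiviral guide RNA vector with EGFP. The guide of SW480-45 was directed against HPSE and that of SW480-NC was a control guide, and SW480-45 was taken to be the line the study names SW480-KD1. Whether a line was 1 clone is not given in the sources used here, and with 1 knockdown line the effects of the line and of the knockdown cannot be told apart.

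Cells build serine from the glycolytic intermediate 3-phosphoglycerate by way of PHGDH, PSAT1 and PSPH. In mitochondria SHMT2 splits serine into glycine and a folate-bound carbon unit, which MTHFD2 and ALDH1L2 process further. Proline is made from glutamate through ALDH18A1 and PYCR1, asparagine from aspartate by ASNS, and alanine from pyruvate by GPT2. Many of these genes are known targets of ATF4, a transcription factor that is translated more when amino acids run short and that binds C/EBP-ATF response elements.

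Promoters of 3 members are shown, and only that of ASNS held the core of the C/EBP-ATF response element, the sequence through which ATF4 acts. RefSeq promoter windows on GRCh38.p14, from 250 bases before to 50 bases after the start of transcription, were matched for 5 members, ASNS, PSAT1, PHGDH, MTHFD2 and ALDH18A1. Capitals mark TGATGNAA, the core motif of the C/EBP-ATF response element, and the box CCAAT, which is not that element. These do not overlap each other and were searched on both strands. Each window is read along the strand of the gene.
ASNS, chr7:97872359-97872658, minus strand: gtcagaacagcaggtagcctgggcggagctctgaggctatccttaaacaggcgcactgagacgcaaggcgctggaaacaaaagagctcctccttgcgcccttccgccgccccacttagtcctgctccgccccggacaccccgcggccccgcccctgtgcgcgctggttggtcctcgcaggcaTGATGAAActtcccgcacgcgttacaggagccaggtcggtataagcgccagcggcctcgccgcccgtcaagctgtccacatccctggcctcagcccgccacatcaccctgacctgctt
PSAT1, chr9:78296875-78297174, plus strand: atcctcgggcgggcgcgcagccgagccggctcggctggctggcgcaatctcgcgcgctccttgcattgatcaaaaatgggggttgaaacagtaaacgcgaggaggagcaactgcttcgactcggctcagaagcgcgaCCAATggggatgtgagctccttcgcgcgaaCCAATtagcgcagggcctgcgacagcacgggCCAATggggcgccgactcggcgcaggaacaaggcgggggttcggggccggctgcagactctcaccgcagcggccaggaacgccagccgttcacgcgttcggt
PHGDH, chr1:119711684-119711983, plus strand: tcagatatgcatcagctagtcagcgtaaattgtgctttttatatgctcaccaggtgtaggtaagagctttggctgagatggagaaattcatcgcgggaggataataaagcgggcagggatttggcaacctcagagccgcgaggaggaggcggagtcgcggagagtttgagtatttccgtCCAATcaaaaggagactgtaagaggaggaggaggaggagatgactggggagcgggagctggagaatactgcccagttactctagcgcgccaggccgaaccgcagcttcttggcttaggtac
The ASNS window held TGATGAAA on the strand of the gene, 68 bases before the start, at chr7:97872469-97872476. TGATGNAA occurred in 3.62% of the 35116 promoter windows searched and in 1 of the 5 members. The second ASNS window in RefSeq held neither motif. CCAAT was found in the PSAT1 window at 113, 83 and 52 bases before the start, and in that of PHGDH at 71 bases before. It was present in 34.6% of all windows and in 3 of the 5 members, the other being MTHFD2. These matches are letters in a window, and binding was not measured.

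Values are normalized counts, the reads of a feature divided by 1 size factor per library. Means are given ± SD over 3 libraries. The libraries held 33221323 to 39802365 reads. HPSE had 136, 172 and 146 normalized counts in SW480-45 and 269.9, 295 and 246 in SW480-NC, without overlap, a log2 difference of −0.83 (standard error 0.14, adjusted p = 0.0547 from limma), which missed the adjusted threshold of 0.05. Of 7 colon epithelial markers 5 had a row, with a summed 106664 to 115221 normalized counts in SW480-45 and 121025 to 127970.0 in SW480-NC, most of it from KRT8, at 75512 and 87410.3 on average. VIL1 lay the other way without overlap, at 9094 ± 359.7 in SW480-45 and 7902 ± 539 in SW480-NC, and CDX2 stayed between 19.0 and 40.3. Of 11 markers of other cell types 6 had a row, with a summed 335 to 441 in SW480-45 and 270.4 to 319 in SW480-NC, most of it from COL1A1, and CDH5 and ALB were each at 0 in 5 libraries. The part of these markers in the results was not tested, and fewer cells of a type and less RNA per cell cannot be told apart in bulk RNA. Differences are on the log2(normalized count + 1) scale, SW480-45 minus SW480-NC, from 1 limma fit to all 21703 features that averaged 10 or more.

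All 8 members with a row passed that filter, and all 8 averaged higher in SW480-45. Summed over the 8, the libraries held 70000.0 to 70427 normalized counts in SW480-45 and 54642 to 57438 in SW480-NC. The median of their log2 differences was 0.35, ranging from 0.055 for MTHFD2 to 0.66 for ASNS, against −0.0048 over all features tested. In 5 of the 8, ASNS, PSAT1, PHGDH, SHMT2 and MTHFD2, every SW480-45 library lay above every SW480-NC library, as in 11.4% of all features, and in 0 it lay below, as in 12.0%. At an adjusted p under 0.05, 2 of the 8, ASNS and PSAT1, were called higher, against 0.332% of all features in that direction, and 0 lower, against 0.47% (0.802% either way). At an unadjusted p under 0.05 the number was 4 higher, against 8.1%, and 0 lower, against 8.15%. With a change of at least 2-fold required as well it was 0, against 0.0968% higher, 0.143% lower and 0.24% either way. Since the list was chosen on this contrast, nothing was read from these counts. The number called was 0 when SW480-45 replicate 1, SW480-NC replicate 1 or SW480-NC replicate 2 was omitted, 1 when SW480-45 replicate 2 or 3 was, and 2 when SW480-NC replicate 3 was.

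**Figure D1:**
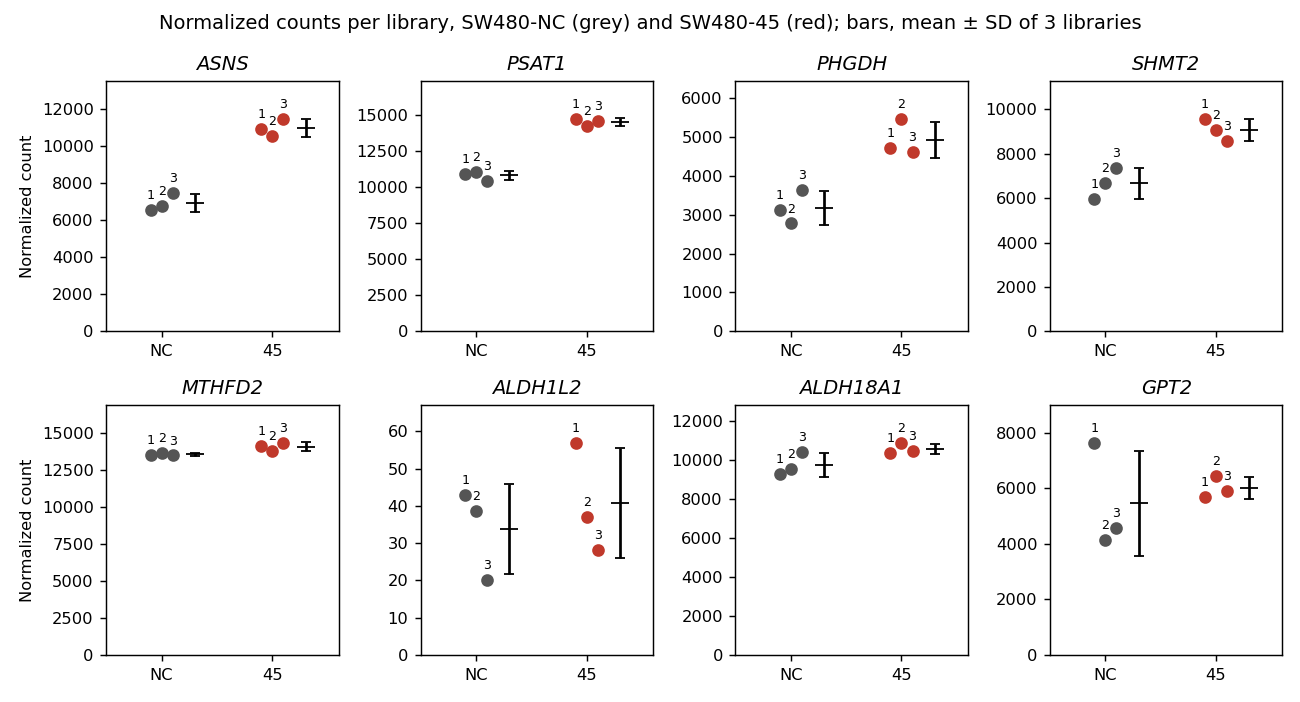
Normalized counts (y axis, from 0) of the 8 members in the 3 SW480-NC and 3 SW480-45 libraries, numbered by replicate, with the mean ± SD beside them. ASNS, PSAT1, PHGDH and SHMT2 stand apart between the lines, while ALDH1L2, ALDH18A1 and GPT2 overlap and 1 SW480-NC library of GPT2 lies far above the other 2.

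ASNS (ENSG00000070669, chr7:97852118-97872542, minus strand) encodes asparagine synthetase, which transfers nitrogen from glutamine to aspartate. It had 10919, 10506 and 11429 normalized counts in SW480-45 and 6550.2, 6755 and 7459 in SW480-NC. The lowest SW480-45 library was well above the highest SW480-NC library. ASNS averaged 10951 ± 462 in SW480-45 and 6921 ± 477 in SW480-NC, a log2 difference of 0.66 (standard error 0.071) and 58.2% more RNA. This was the largest difference among the 8 members, and it stayed between 0.62 and 0.72 whichever library was omitted. Its promoter was the one of the 5 searched that held TGATGNAA, and the part of this motif in the difference was not tested.

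PHGDH (ENSG00000092621, chr1:119648411-119744226, plus strand) encodes phosphoglycerate dehydrogenase, the first enzyme of serine synthesis. It had 4707, 5457 and 4604 normalized counts in SW480-45 and 3127, 2776 and 3645 in SW480-NC. The lines did not overlap, but the libraries of each line spread more than those of ASNS, with coefficients of variation of 9.45% and 13.7%. PHGDH averaged 4923 ± 465 in SW480-45 and 3183 ± 438 in SW480-NC, a log2 difference of 0.63 (standard error 0.12). The difference was close to that of ASNS and its standard error was larger.

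PSAT1 (ENSG00000135069, chr9:78297143-78330093, plus strand) encodes phosphoserine aminotransferase, which takes the next step with nitrogen from glutamate. It had 14736, 14245 and 14625 normalized counts in SW480-45 and 10961, 11050.5 and 10468 in SW480-NC. Its replicates were close, with coefficients of variation of 1.77% and 2.90%, and the lines were far apart by comparison. PSAT1 averaged 14535 ± 257 in SW480-45 and 10826 ± 314 in SW480-NC, a log2 difference of 0.43 (standard error 0.053) and 34.3% more RNA.

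SHMT2 (ENSG00000182199, chr12:57229327-57234935, plus strand) encodes the mitochondrial serine hydroxymethyltransferase. It had 9563, 9073 and 8592 normalized counts in SW480-45 and 5976, 6692 and 7359.7 in SW480-NC. The lines did not overlap, and the SW480-NC libraries spread more than those of ASNS. SHMT2 averaged 9076 ± 485 in SW480-45 and 6676 ± 692 in SW480-NC, a log2 difference of 0.45 (standard error 0.088). SHMT1, the cytosolic form, averaged 1744 ± 92.9 in SW480-45 and 1466 ± 154 in SW480-NC, a log2 difference of 0.25 (adjusted p = 0.269 from limma). The ratio of SHMT2 to SHMT1 was 5.51, 4.93 and 5.19 in SW480-45 and 4.44, 4.74 and 4.49 in SW480-NC, so it was higher in every SW480-45 library. SHMT2 was chosen with its values in view, so this ratio is a description and not a test.

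MTHFD2 (ENSG00000065911, chr2:74198562-74217565, plus strand) encodes the mitochondrial dehydrogenase and cyclohydrolase that follows SHMT2. It had 14151, 13781 and 14338 normalized counts in SW480-45 and 13526, 13669 and 13486 in SW480-NC. A narrow gap separated the lines. MTHFD2 averaged 14090.0 ± 284 in SW480-45 and 13560.4 ± 95.9 in SW480-NC, 3.91% apart, a log2 difference of 0.055 (standard error 0.050). Because it differed so little, ASNS, PSAT1 and SHMT2 were also set against it within each library, which removes the scaling of the libraries. PHGDH, ALDH18A1, GPT2 and ALDH1L2 were not set against it. The ratio of ASNS to MTHFD2 was 0.772, 0.762 and 0.797 in SW480-45 and 0.484, 0.494 and 0.553 in SW480-NC. The ratio of PSAT1 to MTHFD2 was 1.04, 1.03 and 1.02 in SW480-45 and 0.810, 0.808 and 0.776 in SW480-NC. That of SHMT2 to MTHFD2 was 0.676, 0.658 and 0.599 in SW480-45 and 0.442, 0.490 and 0.546 in SW480-NC. All 3 ratios were higher in every SW480-45 library. That was set in advance, since these members and MTHFD2 were chosen with their values in view. MTHFD2 against its cytosolic counterpart MTHFD1 was 1.76, 1.63 and 1.76 in SW480-45 and 1.80, 1.71 and 1.49 in SW480-NC, and there the lines overlapped.

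ALDH18A1 (ENSG00000059573, chr10:95605929-95656706, minus strand) encodes the synthase that commits glutamate to proline. It had 10363, 10867 and 10469.6 normalized counts in SW480-45 and 9286, 9521 and 10414 in SW480-NC. The highest SW480-NC library lay within the SW480-45 range. The log2 difference was 0.12 (standard error 0.064). PYCR3, another pyrroline-5-carboxylate reductase, averaged 465 ± 30.7 in SW480-45 and 484 ± 48.2 in SW480-NC, a log2 difference of −0.056 (adjusted p = 0.845 from limma), and of 0.017 when SW480-NC replicate 3 was omitted. PRODH, which breaks proline down, averaged 65.8 ± 10.8 in SW480-45 and 70.6 ± 3.14 in SW480-NC, a log2 difference of −0.11 (adjusted p = 0.808 from limma). These 3 proline genes overlapped between the lines.

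GPT2 (ENSG00000166123, chr16:46884378-46931297, plus strand) encodes the mitochondrial alanine aminotransferase. It had 5701, 6462 and 5915 normalized counts in SW480-45 and 7637, 4141 and 4585 in SW480-NC. SW480-NC replicate 1 was the highest of the 6 libraries and the other SW480-NC libraries were the lowest, with a coefficient of variation of 34.9% in SW480-NC against 6.51% in SW480-45. The log2 difference of 0.20 (standard error 0.21) became 0.47, 0.024 and 0.10 when SW480-NC replicates 1, 2 and 3 were omitted. The size of the difference thus turned on which control library was kept.

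ALDH1L2 (ENSG00000136010, chr12:105019784-105084577, minus strand) encodes the mitochondrial formyltetrahydrofolate dehydrogenase. It was nearly silent, with 56.9, 37.0 and 28.3 normalized counts in SW480-45 and 42.9, 38.6 and 20.1 in SW480-NC, from 19 to 54 reads a library. The lines overlapped. The log2 difference of 0.27 had a standard error of 0.38 and was −0.057 when SW480-NC replicate 3 was omitted. No difference was detected, and the coefficients of variation were 36.1% in SW480-45 and 35.7% in SW480-NC. ALDH1L1, the cytosolic form, was below the filter, with 2 to 15 reads a library. The relatives MTHFD1L and GPT had no row of their own and were not analysed here.

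**Figure D2:**
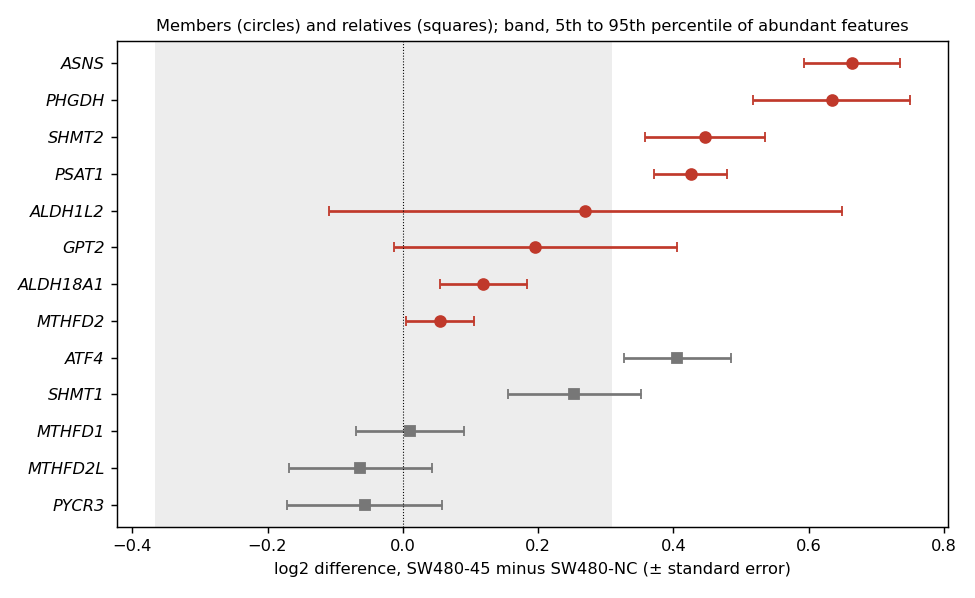
The log2 difference between the lines (x axis, SW480-45 minus SW480-NC) with its standard error for the members (circles) and for ATF4 and 4 relatives (squares), beside the band of the 5th to 95th percentile of features that averaged 1000 normalized counts or more. ASNS, PHGDH, SHMT2 and PSAT1 lie above that range, while MTHFD2, ALDH18A1 and GPT2 lie within it. ALDH1L2 also lies there but averaged far fewer than 1000 normalized counts, so the band is not its own measure.

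All members but ALDH1L2 were abundant. Among the 6810 features that averaged 1000 normalized counts or more, the 5th and 95th percentiles of the log2 difference were −0.37 and 0.31, and ASNS, PHGDH, SHMT2 and PSAT1 lay above them. Per kilobase of merged exons in GENCODE 29, PSAT1 was the highest, with 4948 normalized counts per kilobase in SW480-NC and 6643 in SW480-45. In SW480-NC it was followed by MTHFD2 at 2784, ALDH18A1 at 2586, ASNS at 1554, SHMT2 at 1379.9, GPT2 at 858, PHGDH at 345 and ALDH1L2 at 3.98. In this order the libraries of ASNS and SHMT2 overlapped in SW480-NC. They did not in SW480-45, where ASNS stood at 2458 and SHMT2 at 1876. The order depended on the length used. With the principal transcript, ASNS had 2938 normalized counts per kilobase in SW480-NC, just above the 2899.7 of ALDH18A1, and PHGDH had 1231.

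The libraries of a line did not move as one across members. Relative to each gene's own mean over the 6 libraries, on the log2 scale, SHMT2 was highest in SW480-45 replicate 1 (0.30), PHGDH in replicate 2 (0.47) and ASNS in replicate 3 (0.39). SW480-NC replicate 3 was the control library closest to SW480-45 for ASNS (−0.22), PHGDH (−0.11) and SHMT2 (−0.078), but the farthest for PSAT1 (−0.26). Of 9697 other genes that averaged 50 or more, PRSS12, MEX3A, HOXB7, PKIG and B9D1 lay nearest to the mean profile of the members, at root mean square distances from 0.0161 for PRSS12 to 0.0443 for B9D1 on the log2 scale over the 6 libraries. Their log2 differences ran from 0.29 for HOXB7 to 0.41 for B9D1, with adjusted p from 0.0814 for MEX3A to 0.237 for PKIG in limma. That they were higher in SW480-45 was set in advance, since the profile matched holds the difference between the lines. Each member counted alike in that profile, and ALDH1L2, nearly silent, ranged most widely, from −0.79 to 0.67.

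ATF4 and a list of genes that regulate or act within its pathway were examined. ATF4 RNA had 19473, 18899 and 18435 normalized counts in SW480-45 and 14797, 12745 and 15470.2 in SW480-NC. The lines did not overlap, and the log2 difference was 0.41 (standard error 0.079, adjusted p = 0.0803 from limma). ATF4 is controlled largely at translation, which RNA levels do not measure. DDIT3, the stress factor CHOP, averaged 694 ± 17.4 in SW480-45 and 603 ± 49.7 in SW480-NC, a log2 difference of 0.21 (adjusted p = 0.349 from limma). Of 23 genes listed for the pathway, ATF4 among them, 20 were tested. ATF3, DDIT3, TRIB3 and CEBPG are also on the list of ATF4 targets, so these are not only genes above ATF4. The 20 had a median log2 difference of −0.0037, with 10 higher and 10 lower. Of these, 1 was called in each direction, beside 0.332% of all features called higher and 0.47% lower. NUPR1, a stress-induced chromatin protein, rose by 1.14 on the log2 scale (standard error 0.14), with an adjusted p = 0.0184 from limma, and averaged 1323 ± 160.3 in SW480-45 and 601 ± 83.2 in SW480-NC. It lost the call when SW480-45 replicate 1 or 2 or SW480-NC replicate 1 or 2 was omitted, with an adjusted p from limma of 0.0334 to 0.0814 over the 6 omissions. ATF5, a factor related to ATF4, fell by 0.66 on the log2 scale (standard error 0.11), with an adjusted p = 0.0475 from limma, and averaged 1794 ± 216 in SW480-45 and 2830.1 ± 204 in SW480-NC. It lost the call whichever library was omitted, with an adjusted p from limma of 0.0879 to 0.172. ATF3, another stress-induced factor, was at 0.86 and EIF2S1, the eIF2 subunit whose phosphorylation favours ATF4 translation, at −0.26 (adjusted p = 0.240 and 0.156 from limma). ATF3 passed in 1 of 10 other settings with all libraries and in 0 of the 6 omissions.

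Of 35 other genes known as ATF4 targets 30 were tested, and 6 of the 35 are also on another list used here. This list, like the others here, was chosen with earlier results of these data known, so its counts are a description and not a test. The median log2 difference of the 30 was 0.20, with 26 higher and 4 lower in SW480-45, beside 10700 higher of the 21703 features. In 16 of the 30 every SW480-45 library lay above every SW480-NC library, beside 11.4% of all features, and in 0 it lay below, beside 12.0%. At the adjusted threshold of limma 2 were called higher, DDIT4 and SLC6A9, and 0 lower, beside 0.332% and 0.47% of all features. The number called was 4 over features averaging 50 or more, 3 with all features or Ensembl features alone, and 0 without an intensity trend. DDIT4, an inhibitor of mTORC1, rose by 1.08 on the log2 scale (standard error 0.091, adjusted p = 0.00577 from limma), averaged 2558 ± 233 in SW480-45 and 1204 ± 45.3 in SW480-NC, and kept the call whichever library was omitted. It lost the call without an intensity trend (adjusted p = 0.0704 from limma) and with the replicate number as a block (adjusted p = 0.0519 from limma). SLC6A9, a glycine transporter, rose by 0.80 on the log2 scale (standard error 0.12), with an adjusted p = 0.0378 from limma, and averaged 759 ± 11.98 in SW480-45 and 437 ± 55.3 in SW480-NC. It lost the call whichever library was omitted, with an adjusted p from limma of 0.0621 to 0.154. The lowest were CEBPG at −0.078 and SLC7A11, the cystine transporter, at −0.076 (adjusted p = 0.588 and 0.806 from limma). SLC7A11 turned to 0.048 when SW480-45 replicate 1 was omitted and to 0.015 when SW480-NC replicate 3 was.

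The neighbouring metabolic enzymes were divided in direction. Of 30 other folate and glycine genes 20 were tested, with a median log2 difference of −0.020, 9 higher and 11 lower. In limma 0 were called and 7 had an unadjusted p under 0.05, beside 0.802% and 16.2% of all features. Here edgeR and DESeq2 called 0 and 2, beside 136 and 756 of all 21703 features. CTH, which makes cysteine from cystathionine, averaged 563 ± 51.3 in SW480-45 and 342 ± 36.9 in SW480-NC, a log2 difference of 0.72 (adjusted p = 0.0580 from limma). It passed with all features, over features averaging 50 or more and with Ensembl features alone (adjusted p = 0.0387, 0.0469 and 0.0465 from limma). CTH also passed in DESeq2, but in 0 of the 6 fits with a library omitted. SARDH, the sarcosine dehydrogenase, was at 0.86 (adjusted p = 0.179 from limma). The folate carriers SLC19A1, of the cell surface, and SLC25A32, of mitochondria, were at −0.96 and −0.34 (adjusted p = 0.117 and 0.333 from limma). SLC19A1 passed with all features (adjusted p = 0.0480 from limma) and in DESeq2, but in 0 of the 6 omissions. MTHFD1 and MTHFD2L, relatives of MTHFD2, were at 0.011 and −0.063 (adjusted p = 0.964 and 0.809 from limma), and MTHFD1 was below 0 when SW480-45 replicate 2 or SW480-NC replicate 1 or 2 was omitted, down to −0.050.

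Of 24 other proline, glutamate and aspartate genes 16 were tested, with a median log2 difference of −0.028, 7 higher and 9 lower. In limma 0 were called and 4 had an unadjusted p under 0.05, beside 0.802% and 16.2% of all features, and edgeR and DESeq2 called 0 and 3, beside 136 and 756 of the 21703. ASRGL1, which breaks asparagine down, averaged 1062 ± 67.3 in SW480-45 and 744 ± 32.8 in SW480-NC, a log2 difference of 0.51 (adjusted p = 0.0624 from limma). It passed over features averaging 50 or more and with Ensembl features alone (adjusted p = 0.0432 and 0.0463 from limma). ASRGL1 also passed in DESeq2, but in 0 of the 6 fits with a library omitted. The ratio of ASNS to ASRGL1 was 9.995, 10.7 and 10.3 in SW480-45 and 9.25, 9.01 and 9.65 in SW480-NC, a narrower separation than for ASNS alone. This ratio too is a description, since ASNS was chosen with its values in view. ASS1, which consumes aspartate for arginine synthesis, was at 0.41 (adjusted p = 0.140 from limma). GLUD1, the glutamate dehydrogenase, was at −0.30 (adjusted p = 0.0945 from limma), opposite in sign to PSAT1, which uses glutamate.

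Of 13 purine synthesis genes, a route that draws on glycine and folate-bound carbon, 10 were tested, with a median log2 difference of −0.030, 4 higher and 6 lower. In limma 0 were called and 3 had an unadjusted p under 0.05, again beside 0.802% and 16.2% of all features, and edgeR and DESeq2 called 0 and 2, beside 136 and 756 of the 21703. The genes at the ends were ADSS1 at 0.66, ADSL at 0.070, PPAT at −0.28 and PRPS2 at −0.72 (adjusted p = 0.100, 0.776, 0.173 and 0.145 from limma). PRPS2, which makes the ribose phosphate donor of purines, passed when SW480-NC replicate 2 was omitted, at −0.97 (adjusted p = 0.0290 from limma). It also passed in DESeq2. ADSS1 passed in 1 of 10 other settings with all libraries and in 0 of the 6 omissions.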

How the data were processed

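RNA of 6 SW480 libraries was sequenced. The submitters' processing notes name bcl2fastq, HISAT2, DESeq2 and GRCh38, and the study names Cuffdiff. The annotation and counting tool are not given in the sources used here. What the authors deposited is a size-factor-scaled signal, reads on a feature over 1 factor for the library, for 59192 features. Of these, 25927 carry Ensembl identifiers and 33265 are assembler loci, the latter not searched for members. Every value was a whole multiple of 1 step per library (100% whole within 0.01 reads), which gave the reads. A count of 0 allows up to 3 reads. Counting precision is not the limit for the abundant members.

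log2(normalized count + 1) was fitted with limma 3.58.1 (R 4.3.3), with an intensity trend, over 21703 features with a mean of at least 10, and p-values were adjusted by Benjamini-Hochberg over all of them. A call is an adjusted p under 0.05. The steps were tested on simulated counts with changes larger than those of the members, so that test does not cover differences of their size. Alternatives were a pseudocount of 5, all features, a mean of at least 50, median-of-ratios or quantile scaling, no trend, Ensembl features only, the replicate block, each library left out, and edgeR 4.0.16 and DESeq2 1.42.0 on the recovered reads. The principal-transcript length and the limit of 1000 were chosen after seeing the data. The members and lists were chosen with earlier results of these data known. Named were the members, HPSE, ATF4, DDIT3, close relatives, in each list the called genes (at most 6) and the 2 largest rises and falls at a mean of at least 50, and the 5 nearest profiles. Symbols matched 25595 identifiers. Positions and lengths are from GENCODE 29 (GRCh38), promoters from RefSeq. Of 17 copies named after members, 5 had rows, at up to 25.3 normalized counts. How reads shared with such copies were counted is not stated. Replicates were separate experiments and differed by more than sampling noise (chi-square per feature 21.3 to 26.9). Figures used matplotlib 3.10.9. Some genes that the naming rule selects are not reported here.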

Additional observations from a re-analysis of the deposited data

How the results depend on the processing

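The median log2 difference of the members stayed above 0 under the alternatives run. It was 0.43 over features averaging 50 or more, where ALDH1L2 drops out, and 0.28 to 0.45 when single libraries were omitted. Members called, 2, became 3 with all features, where PHGDH was added, 0 without an intensity trend, 0 with the replicate block, 4 in DESeq2 and 0 to 2 when single libraries were omitted. Calls over all features, 174, became 11 without a trend, 12 with the block, 756 in DESeq2 and 29 to 93 when single libraries were omitted. Same-numbered libraries did not deviate together (r from −0.0975 to −0.0115), so their numbers were not taken to pair them. DDIT4, called in every omission, lost its call without a trend (adjusted p = 0.0704 in limma) and with the block (adjusted p = 0.0519 in limma), as did NUPR1, ATF5 and SLC6A9, and ATF5 also in edgeR and with quantile normalization. HPSE kept −0.83 and passed with all features, with those averaging 50 or more, with Ensembl features and in DESeq2 (−0.83), and was −0.93 to −0.76 when single libraries were omitted. Quantile normalization gave medians of 0.022 for the folate and glycine genes and 0.045 for the ATF4 regulators. It gave 0.025 for the proline, glutamate and aspartate genes and 0.028 for the purine genes, so these medians turned above 0. Omitting single libraries gave −0.048 to 0.00082 for the folate and glycine genes and −0.036 to 0.057 for the ATF4 regulators. The ranges were −0.058 to 0.032 for the proline, glutamate and aspartate genes and 0.19 to 0.27 for the other ATF4 targets. Signs turned for ALDH1L2 (−0.057 to 0.50), MTHFD1 (−0.050 to 0.087, with −0.0096 and −0.0045 omitting SW480-45 or SW480-NC replicate 2), PYCR3 (−0.13 to 0.017) and SLC7A11 (−0.17 to 0.048, with 0.015 omitting SW480-NC replicate 3). Mean levels per kilobase of ASNS, PHGDH, SHMT2, MTHFD2, ALDH18A1 and GPT2 were 3793, 1568, 3104, 3103, 3023, 1441 with the principal transcript, against 2006, 439.7, 1628, 2839, 2696, 903 with merged exons. The cause of the changed calls was not tested.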

Other observations

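MYC and CHAC1, chosen after their values were seen, spread widely between libraries of a line. MYC, a transcription factor known to act on many biosynthetic genes, had 1979, 8721 and 7177 normalized counts in SW480-45 and 11556, 2145 and 7767 in SW480-NC. GPT2 had its highest and lowest value of each line in the same libraries as MYC, replicates 2 and 1 of SW480-45 and replicates 1 and 2 of SW480-NC. No other member had this order in both lines, and the part of MYC in the GPT2 values was not tested. The share of all features with this order was not counted, so nothing was read from the match. CHAC1, an ATF4 target that degrades glutathione, had 109.7, 350.4 and 106 normalized counts in SW480-45 and 92.0, 221 and 172 in SW480-NC, and the lines overlapped.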
